A study of Mus musculus with 6 samples.

Results

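Ribosome biogenesis is the making of ribosomes in the nucleolus, and the genes described here encode MYC and the factors that transcribe, modify, cut and assemble ribosomal RNA. The genes were taken from a list of 38 that was chosen with earlier results of these data known. Of the 38, 36 were measured by a probe set that carried 1 gene symbol, out of 19937 genes in all. Shares of the 36 set beside those of all genes are therefore a description. Noc2l and Ppan had no such probe set and are not reported. Naive CD4+ T cells from B6 mouse spleen had been activated with antibodies to CD3 and CD28 for 2 days, rested overnight, coated for 20 min with antibody and cross-linked with goat anti-hamster antibody for 8 h. In the anti-CD3 group (4 arrays) the coating antibody bound CD3 alone, and in the anti-CD3 plus anti-ICOS group (2 arrays) it was combined with antibody to ICOS, a costimulatory receptor of the CD28 family. All 6 cultures shared the earlier activation, and no unstimulated culture was analysed here. Each culture's RNA was read on its own Mouse Gene ST array from Affymetrix. The contrast bears on what ICOS engagement adds to transcript levels under CD3 stimulation.

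Ribosomal RNA is transcribed by RNA polymerase I, and the precursor is modified by small nucleolar RNA particles, cut by a large small-subunit processome and assembled with ribosomal proteins into separate pre-40S and pre-60S particles. MYC is a transcription factor that binds DNA together with MAX and is known to raise many of these genes when T cells enter growth and division. Resting T cells hold small nucleoli, and activation enlarges them.

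Levels are given as log2(intensity + 16), and each difference is the anti-ICOS group's mean less that of the anti-CD3 group on that scale, which understates the change of dim genes. Median probe set intensity lay between 109 and 114 on the 6 arrays. Replicates are labelled as biological, with no batch named and no word on whether cultures came from separate mice, so p-values rest on the spread among the cultures, which may be technical. The precision is limited by the number of arrays, above all the 2 anti-ICOS arrays. Anti-CD3 replicate 4 stood apart from replicates 1 to 3: over all genes it correlated with the anti-ICOS arrays at r = 0.996 and 0.996, and with replicates 1 to 3 at 0.986, 0.987 and 0.982. Genes are not independent replicates, and these correlations are a description. Each result is therefore given with all 6 arrays, without replicate 4, and against replicate 4 alone. In the last, replicates 1 to 3 add only to the estimate of spread. Replicate 4 was set apart because of these same values, and leaving it out narrows the median anti-CD3 spread of these genes. P-values and counts past the threshold from fits without it are therefore a description.

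Transcripts of most ribosome biogenesis genes read higher with anti-ICOS than in anti-CD3 replicates 1 to 3, and about as high in anti-CD3 replicate 4 as with anti-ICOS. With all 6 arrays, 0 of the 36 genes passed the test in either direction (limma, adjusted p between 0.414 and 0.921), against 0.271% of all genes, all of them higher. At an unadjusted p under 0.05 there were 13 of 36, against 6.24% of all genes in the higher and 5.56% in the lower direction. The differences were above 0 in 33 of 36 genes, with a median of 0.33 and a range of -0.082 to 0.63, beside a median of -0.031 over all genes. Without replicate 4, 27 of 36 genes (75.0%) were higher past the threshold (adjusted p under 0.05) and 0 were lower, while 17.1% of all genes were higher and 12.7% lower, 29.7% in all. Those 27 differed by 0.28 to 0.82, or 1.21-fold to 1.77-fold, with a median over all 36 of 0.42. Against replicate 4 alone 0 of 36 passed, against 0.176% of all genes, the median was 0.0061, and 19 genes lay above and 17 below replicate 4. Array quality weights, which gave replicate 4 the lowest weight of the 6, led to 27 higher genes and 1 lower, Npm1, beside 22.8% of all genes higher and 24.4% lower, 47.2% in all.

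**Figure D1:**
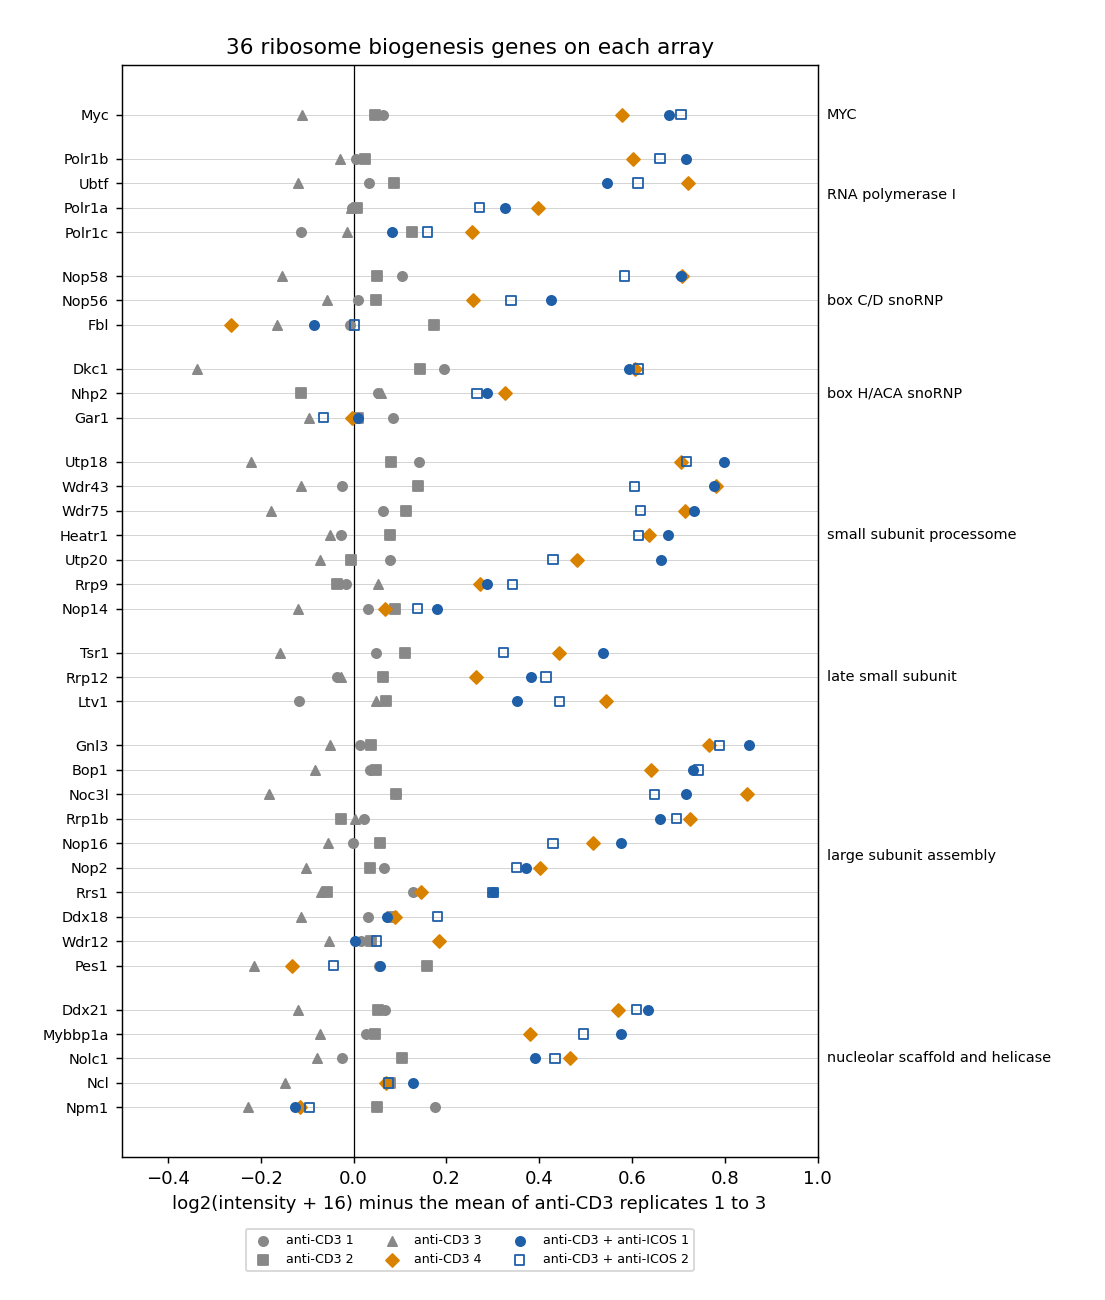
Each row is a gene, grouped by role, and each point an array, plotted as log2(intensity + 16) minus the mean of anti-CD3 replicates 1 to 3. In 30 of 36 genes the orange point of anti-CD3 replicate 4 lies to the right of the grey points of replicates 1 to 3, and in 28 of 36 both blue anti-ICOS points do.

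The position of the arrays can be read gene by gene. In 12 of 36 genes (33.3%) the lower anti-ICOS array exceeded the highest anti-CD3 array, against 8.51% of all genes, and in 0 were both below all 4, against 14.7%. They exceeded replicates 1 to 3 in 28 of 36 (77.8%), against 28.5% of all genes, and were below these 3 in 0, against 35.1%. Replicate 4 lay above replicates 1 to 3 in 30 of 36 (83.3%), against 34.5% of all genes, below them in Fbl alone, against 42.5%, and within their range in the other 5. Set beside the anti-ICOS arrays, replicate 4 was above both in 12 genes, below both in 15 and between them in 9. Among replicates 1 to 3, replicate 3 was lowest in 30 of 36 genes, against 46.1% of all genes, and its median over the 36 was -0.089 relative to the mean of the 3, against 0.032 and 0.055 in replicates 1 and 2. The anti-ICOS arrays differed little from each other, with medians of 0.48 and 0.43 relative to replicates 1 to 3, beside 0.45 in replicate 4.

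Myc read 9.85, 9.84 and 9.68 in anti-CD3 replicates 1 to 3, 10.37 in replicate 4, and 10.47 and 10.50 with anti-ICOS. Both anti-ICOS arrays were above all anti-CD3 arrays, with replicate 4 close below them. The group means were 9.93 ± 0.30 (SD, n = 4) and 10.48 ± 0.019 (SD, n = 2), a difference of 0.55 ± 0.18 (SE, adjusted p = 0.414). Without replicate 4 Myc was higher by 0.69 ± 0.075, a 1.62-fold change (adjusted p = 0.000716), and against replicate 4 alone it differed by 0.11 ± 0.10. In deposited intensities the probe set 10424400 of Myc read 909.1, 897.8 and 803.7 in replicates 1 to 3, 1305 in replicate 4, and 1401 and 1428 with anti-ICOS.

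MYC with MAX binds the E-box CACGTG, so the promoters of these genes were searched for those letters. The window ran from 250 bases before to 50 after each RefSeq transcript start in GRCm38.p6, and 32 of the 38 genes had at least 1 window; Myc, Fbl, Npm1, Bop1, Rrp12 and Rrs1 had none. CACGTG is its own reverse complement, so 1 search covers both strands. It stood in 8 of 32 genes (25.0%), against 8.09% of all 27025 genes with a window and 9.5% of those tested on the arrays. In the 7 further lists described below, the share ran from 10.3% of cytosolic ribosomal proteins to 50.0% of metabolic and other genes linked to MYC. It was 22.9% of the other small subunit factors and 20.0% of the other large subunit factors. The ETS motif CCGGAA, on either strand, stood in 14 of 32 (43.8%) against 16.7% of all genes and 3432 of the 15613 tested genes with a window, and the palindromic NRF1 motif in 0 of 32 against 1.07% and 1.61%. Each motif was counted alone, overlaps with the others included. The windows of the 32 genes held a median of 59.7% G and C against 52.7% over all windows and 57.3% over those of the tested genes. The 8 E-boxes are given in their local sequence because they are the letters a MYC-MAX dimer could read in these genes; the capitals mark CACGTG, each line runs 5′ to 3′ on the strand of the gene, and the box position is counted from the transcript start.
Nop2: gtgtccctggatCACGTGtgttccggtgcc
Utp18: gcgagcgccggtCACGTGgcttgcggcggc
Pes1: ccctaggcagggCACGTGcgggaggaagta
Wdr43: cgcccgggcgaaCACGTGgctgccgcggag
Tsr1: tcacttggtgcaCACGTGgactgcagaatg
Ltv1: gccctgtggaccCACGTGtggagctgccgg
Utp20: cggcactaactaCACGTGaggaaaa
Mybbp1a: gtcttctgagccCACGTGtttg

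The Nop2 stretch lies at chr6:125131811-125131840 (plus strand) with its box starting at -60, and that of Utp18 at chr11:93885769-93885798 (minus strand) at -20. The other 6 boxes begin downstream of the start: Pes1 at 3 (chr11:3963965-3963994, plus), Wdr43 at 18 (chr17:71616220-71616249, plus) and Tsr1 at 25 (chr11:74898092-74898121, plus). Ltv1 follows at 29 (chr10:13193092-13193121, minus), Utp20 at 38 (chr10:88826765-88826789, minus) and Mybbp1a at 41 (chr11:72441355-72441376, plus). The 8 genes with the box and the 22 measured genes with a window and no box had much the same differences. Without replicate 4 the medians were 0.48 and 0.46, with ranges of 0.0077 to 0.76 and -0.027 to 0.82, and with all arrays they were 0.37 and 0.35. Pes1, which holds the box, and Gar1, which does not, were at the low ends of the 2 ranges. The match is of letters only.

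RNA polymerase I transcribes the ribosomal RNA repeats. Of the 4 genes listed under this role, subunits and the promoter-binding Ubtf, 3 were higher past the threshold without replicate 4. Further measured subunits are given below with the other RNA polymerase I factors, of which 2 of 13 were higher. In that fit 17.1% of all genes were higher and 12.7% lower, which is the background for each role count that follows. Polr1b, the second largest subunit, read 8.26, 8.28 and 8.22 in anti-CD3 replicates 1 to 3, 8.85 in replicate 4, and 8.97 and 8.91 with anti-ICOS. The 2 anti-ICOS arrays were above all 4 anti-CD3 arrays, by a mean of 0.54 ± 0.18 (SE, adjusted p = 0.414), or 0.69 ± 0.062 without replicate 4 (adjusted p = 0.000337). Ubtf, which binds the promoter of the repeats, read 10.44, 10.50 and 10.29, then 11.13 in replicate 4, and 10.96 and 11.02 with anti-ICOS. Here replicate 4 was the highest of the 6 arrays, and the difference was 0.40 ± 0.22 with all arrays (adjusted p = 0.430) and 0.58 ± 0.079 without replicate 4 (adjusted p = 0.00196). In Polr1a, the largest subunit, replicate 4 was again the highest array, with 8.93, 8.94 and 8.93, then 9.33, and 9.26 and 9.20. Without replicate 4 it was higher by 0.30 ± 0.061 (adjusted p = 0.0101). Polr1c, which RNA polymerase III shares, differed by 0.058 ± 0.11 with all arrays and 0.12 ± 0.083 without replicate 4 (adjusted p = 0.777 and 0.287).

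Box C/D particles guide methylation of ribosomal RNA, and 3 of their core proteins are listed here. The 2 scaffold proteins were higher past the threshold without replicate 4, and the enzyme was not. Whether these genes differ from one another in response was not tested. Nop58 read 8.13, 8.07 and 7.87 in replicates 1 to 3, 8.73 in replicate 4, and 8.73 and 8.61 with anti-ICOS. Its paralog Nop56 read 10.20, 10.24 and 10.13, then 10.45, and 10.62 and 10.53 with anti-ICOS. Replicate 4 matched the higher anti-ICOS array for Nop58 and lay below both for Nop56. Without replicate 4 Nop58 was higher by 0.64 ± 0.091 and Nop56 by 0.38 ± 0.067 (adjusted p = 0.00227 and 0.00577), while with all arrays the differences were 0.47 ± 0.22 and 0.32 ± 0.10 (adjusted p = 0.423 and 0.414). Fbl, the methyltransferase fibrillarin, read 9.01, 9.19 and 8.86, then 8.76 in replicate 4, and 8.94 and 9.02 with anti-ICOS. Its groups overlapped, with a difference of 0.024 ± 0.13, and replicate 4 was the lowest array, the only gene of the 36 in which it lay below replicates 1 to 3. A second, dimmer probe set of Fbl differed by 0.038 ± 0.072.

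Box H/ACA particles convert uridines of ribosomal RNA to pseudouridine. Of the 3 of their proteins listed here, 2 were higher past the threshold without replicate 4. Dkc1, the pseudouridine synthase dyskerin, read 8.94, 8.89 and 8.41 in replicates 1 to 3, 9.36 in replicate 4, and 9.34 and 9.36 with anti-ICOS. Replicate 3 was the lowest by a wide margin, replicate 4 lay between the anti-ICOS arrays, and the difference without replicate 4 was 0.60 ± 0.15 (adjusted p = 0.0205). Its partner Nhp2 differed by 0.28 ± 0.075 without replicate 4 (adjusted p = 0.0285), the smallest difference among the 27 that passed. Gar1, the third protein, lay between 8.24 and 8.42 on all 6 arrays, with differences of -0.026 ± 0.077 with all arrays and -0.027 ± 0.075 without replicate 4 (adjusted p = 0.857 and 0.797).

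The small subunit processome cuts the precursor on the way to the 40S subunit. It had the largest median of the 7 roles with more than 1 gene. That median was 0.65 without replicate 4 over the 7 genes listed under it, and 6 of the 7 passed. Utp18 read 7.77, 7.71 and 7.41 in replicates 1 to 3, 8.33 in replicate 4, and 8.43 and 8.35 with anti-ICOS. Heatr1, an early-binding protein that also serves transcription of the repeats, read 8.61, 8.71 and 8.58, then 9.27, and 9.31 and 9.25 with anti-ICOS. In both genes the 3 lower arrays were anti-CD3 replicates 1 to 3, and replicate 4 sat beside or within the anti-ICOS pair. Without replicate 4 the differences were 0.76 ± 0.11 for Utp18 and 0.65 ± 0.069 for Heatr1 (adjusted p = 0.00250 and 0.000703), and with all arrays 0.58 ± 0.23 and 0.49 ± 0.19 (adjusted p = 0.417 and 0.420).

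Wdr43 and Wdr75, which belong to the same early subcomplex as Heatr1, differed by 0.69 ± 0.093 and 0.68 ± 0.097 without replicate 4 (adjusted p = 0.00182 and 0.00246). Wdr43 carried an E-box 18 bases into its transcript and Wdr75 had none in its window. The large scaffold protein Utp20 differed by 0.55 ± 0.088 and the U3 particle protein Rrp9 by 0.31 ± 0.065 (adjusted p = 0.00391 and 0.0104). Nop14 read 8.30, 8.36 and 8.15, then 8.33 in replicate 4, and 8.45 and 8.41 with anti-ICOS. Both anti-ICOS arrays were above the other 4, but by little, and the difference of 0.16 ± 0.078 without replicate 4 did not pass the test (adjusted p = 0.154).

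Later small subunit factors act on pre-40S particles in the nucleus and cytoplasm. The 3 listed under this role were all higher past the threshold without replicate 4. Of 42 other small subunit factors, given below, 18 were higher and 1 lower in that fit. Rrp12, which takes part in export, read 7.63, 7.72 and 7.63 in replicates 1 to 3, 7.92 in replicate 4, and 8.04 and 8.08 with anti-ICOS. The anti-ICOS arrays were above all 4 anti-CD3 arrays, and the difference was 0.33 ± 0.10 with all arrays (adjusted p = 0.414) and 0.40 ± 0.065 without replicate 4 (adjusted p = 0.00417). The assembly factors Tsr1 and Ltv1 differed by 0.43 ± 0.10 and 0.40 ± 0.079 without replicate 4 (adjusted p = 0.0175 and 0.00928). In Ltv1 replicate 4, at 8.23, was above the anti-ICOS arrays at 8.03 and 8.13.

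**Figure D2:**
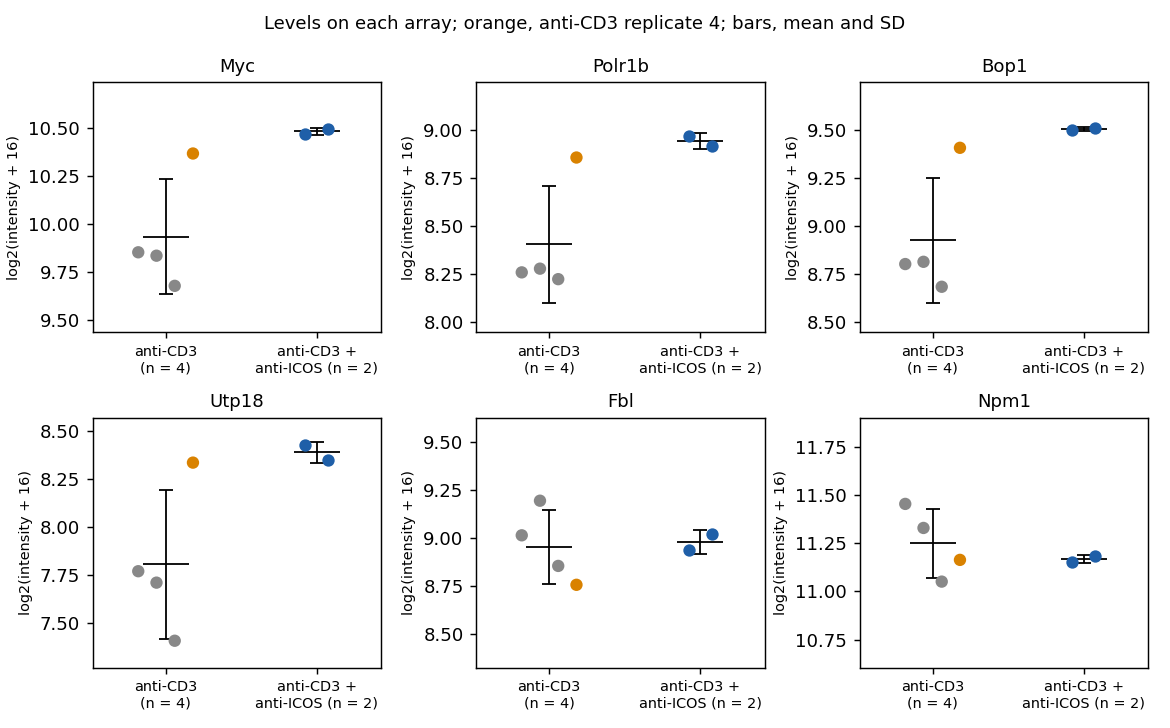
Points are log2(intensity + 16) on each array for 6 genes, with anti-CD3 replicate 4 in orange and the other anti-CD3 arrays in grey, the anti-ICOS arrays in blue, and black bars for mean and SD; each panel spans the same height on the log2 axis. Myc, Polr1b, Bop1 and Utp18 show 3 low arrays and 3 high ones, whereas in Fbl and Npm1 the anti-ICOS points lie within the anti-CD3 range.

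Of 12 listed factors of the large subunit, which becomes the 60S part of the ribosome, 10 were measured and 7 of the 10 were higher past the threshold without replicate 4. Gnl3, the nucleolar GTPase nucleostemin, read 7.84, 7.87 and 7.78 in anti-CD3 replicates 1 to 3, 8.60 in replicate 4, and 8.68 and 8.62 with anti-ICOS. Its difference of 0.63 ± 0.23 with all arrays (adjusted p = 0.417) and 0.82 ± 0.065 without replicate 4 (adjusted p = 0.000197), a 1.77-fold change, was the largest of the 36 genes in both fits. Rrp1b read 7.60, 7.55 and 7.58, then 8.30, and 8.24 and 8.27 with anti-ICOS, and Noc3l read 8.24, 8.24 and 7.97, then 9.001, and 8.87 and 8.80. In both of these genes replicate 4 was the highest of all 6 arrays. Without it they differed by 0.68 ± 0.061 and 0.68 ± 0.095 (adjusted p = 0.000337 and 0.00218).

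Pes1, Bop1 and Wdr12 encode the 3 proteins of the PeBoW complex, which matures the RNA of the large subunit, and the readings of the 3 genes differed. Bop1 read 8.80, 8.81 and 8.68 in replicates 1 to 3, 9.41 in replicate 4, and 9.497 and 9.51 with anti-ICOS, so that both anti-ICOS arrays were above all others. The difference was 0.58 ± 0.19 with all arrays (adjusted p = 0.414) and 0.74 ± 0.068 without replicate 4 (adjusted p = 0.000375). Pes1 read 9.33, 9.43 and 9.06, then 9.14, and 9.33 and 9.23 with anti-ICOS, and its groups overlapped. Without replicate 4 Pes1 differed by 0.0077 ± 0.11 and Wdr12, by the brighter of its probe sets, by 0.027 ± 0.064 (adjusted p = 0.963 and 0.765). Wdr12 had a second, dimmer probe set that read 8.94, 9.01 and 8.99, then 9.57 in replicate 4, and 9.28 and 9.23 with anti-ICOS. On that probe set the anti-ICOS arrays and replicate 4 were above replicates 1 to 3, as in most of the genes. The brighter one stayed between 10.03 and 10.26, so the 2 probe sets of this gene disagreed. Which of them reads Wdr12 better was not tested, and its result is uncertain in that respect. Whether the 3 genes of the complex differ from one another in response was not tested.

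Of the other large subunit factors, Nop16 differed by 0.50 ± 0.073 and the RNA methyltransferase gene Nop2 by 0.36 ± 0.073 without replicate 4 (adjusted p = 0.00260 and 0.00966). Rrs1, which helps to bring 5S RNA into the particle, read 6.66, 6.47 and 6.46, then 6.67, and 6.83 and 6.83 with anti-ICOS. Replicates 1 and 4 were alike here, below the anti-ICOS arrays, and the difference was 0.30 ± 0.079 without replicate 4 (adjusted p = 0.0256). The helicase gene Ddx18 differed by 0.13 ± 0.080 (adjusted p = 0.251), and its second probe set by -0.012 ± 0.084 with all arrays.

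The abundant nucleolar proteins divided in the same way. Ddx21, an RNA helicase that acts on ribosomal RNA transcription and processing, read 9.72, 9.71 and 9.53 in replicates 1 to 3, 10.22 in replicate 4, and 10.29 and 10.26 with anti-ICOS. Mybbp1a, a Myb-binding protein that acts in ribosomal RNA processing, read 8.98, 9.01 and 8.88, then 9.34, and 9.53 and 9.45. In both genes the anti-ICOS arrays were above all anti-CD3 arrays, by 0.48 ± 0.18 and 0.44 ± 0.13 (adjusted p = 0.417 and 0.414), and without replicate 4 by 0.62 ± 0.077 and 0.54 ± 0.069 (adjusted p = 0.00128 and 0.00153). Nolc1, a chaperone of nucleolar RNA particles, differed by 0.41 ± 0.074 without replicate 4 (adjusted p = 0.00630).

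Nucleolin and nucleophosmin, the scaffold proteins that are most often used as nucleolar markers, did not pass the test with or without replicate 4. Ncl read 11.50, 11.51 and 11.28 in replicates 1 to 3, 11.50 in replicate 4, and 11.56 and 11.50 with anti-ICOS. Npm1 read 11.46, 11.33 and 11.05, then 11.16, and 11.15 and 11.18 with anti-ICOS. The values overlapped in both genes, with differences of 0.085 ± 0.089 and -0.082 ± 0.12 with all arrays, and 0.10 ± 0.085 and -0.11 ± 0.11 without replicate 4 (adjusted p = 0.372 and 0.471). Npm1 has near-identical pseudogene copies whose transcripts could share its probes, and its level is uncertain in that respect.

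**Figure D3:**
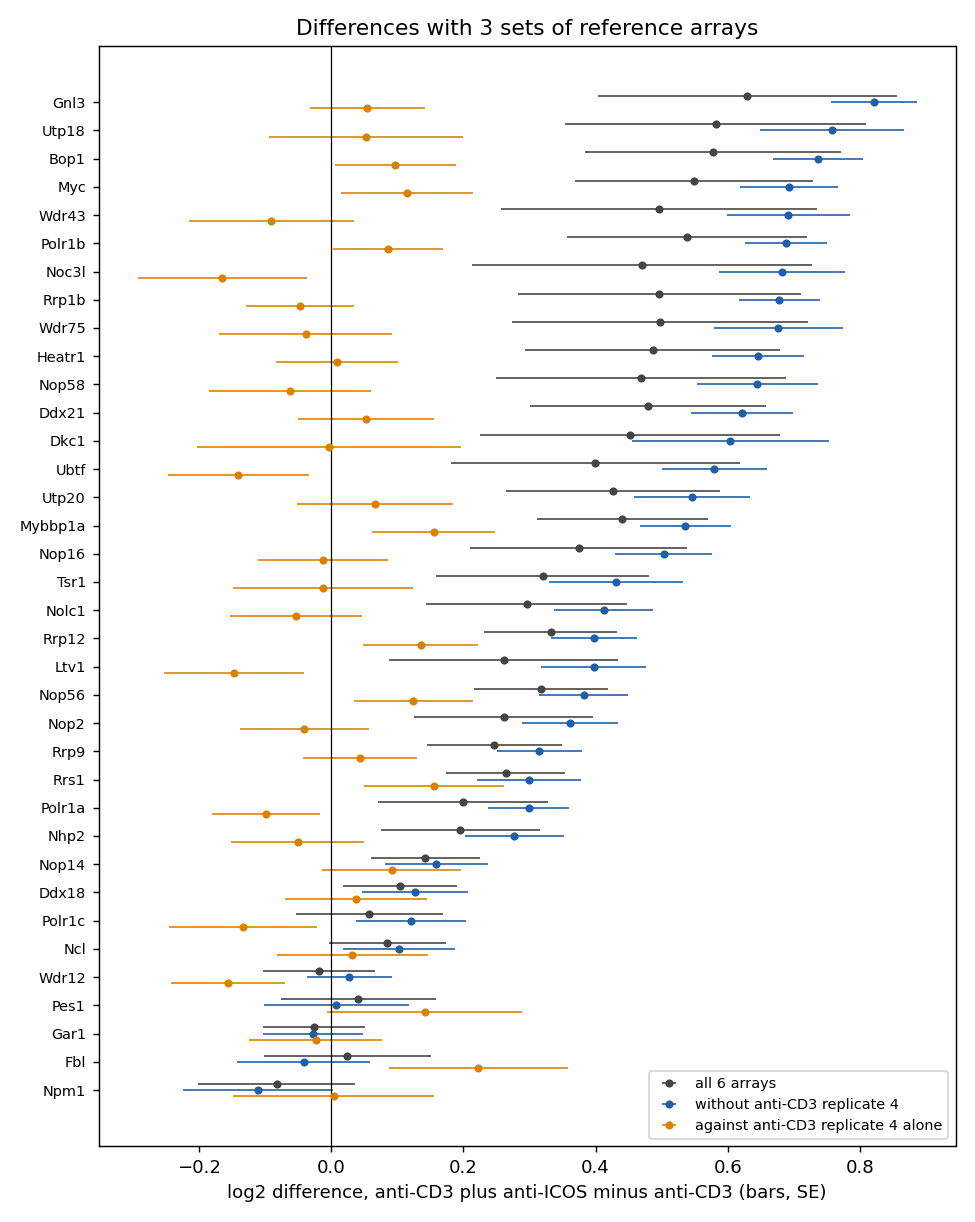
For each gene the points are the log2 difference of the group means, anti-ICOS group less anti-CD3 group, and the bars its SE, with all 6 arrays (black), without anti-CD3 replicate 4 (blue) and against replicate 4 alone (orange). The blue points run from -0.11 in Npm1 to 0.82 in Gnl3, while the orange points lie between -0.16 and 0.22.

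The 9 genes that did not pass without replicate 4 were Polr1c, Fbl, Gar1, Nop14, Pes1, Wdr12, Ddx18, Ncl and Npm1, with adjusted p between 0.154 and 0.963. Wdr12 is counted here by its brighter probe set alone. They came from 6 of the 8 roles, and MYC and the 3 listed late small subunit factors had none. Against replicate 4 alone the differences of the 36 genes ran from -0.16 in Noc3l to 0.22 in Fbl, with SEs of 0.082 to 0.20. Differences of that size were not detectable with 1 reference array. The SD of a gene over the 4 anti-CD3 arrays had a median of 0.25, over replicates 1 to 3 of 0.10, and over the 2 anti-ICOS arrays of 0.045.

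A set of 7 further lists gave the rest of the pathway, with 212 of their 239 genes measured, and 0 of the 212 passed with all 6 arrays or against replicate 4 alone. At an unadjusted p under 0.05 there were 23 of 212 with all arrays, no larger a share than the 2354 of 19937 genes in all (6.24% higher and 5.56% lower). Of 42 other small subunit factors, 38 had a difference above 0, with a median of 0.19, and without replicate 4 there were 18 higher and 1 lower. Of 48 other large subunit factors, 44 had a difference above 0, with a median of 0.23, and without replicate 4 there were 25 higher and 0 lower. The corresponding background without replicate 4 was again 17.1% of all genes higher and 12.7% lower. The acetyltransferase gene Nat10 differed by 0.42 without replicate 4 (adjusted p = 0.0227), and Wdr3 and Wdr36 of the processome by 0.16 and 0.19 (adjusted p = 0.204 and 0.148). Of the large subunit factors Rrp15 differed by 0.40 (adjusted p = 0.0241), Ebna1bp2 by 0.29 and Rrp1 by 0.20 (adjusted p = 0.0544 and 0.0734).

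Of 13 other RNA polymerase I factors, 2 were higher and 0 lower without replicate 4, near the 17.1% of all genes that were higher, with a median of 0.10. The subunit genes Polr1d, Polr1e and Twistnb differed by 0.10, 0.31 and 0.31 (adjusted p = 0.435, 0.0151 and 0.119). RNA polymerase III makes 5S RNA and transfer RNA, and of 18 measured factors 9 were higher and 0 lower, with a median of 0.23. Its subunit genes Polr3a, Polr3b and Polr3c differed by 0.26, 0.079 and -0.19 (adjusted p = 0.0348, 0.584 and 0.0618).

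The cytosolic ribosomal proteins, the other component of the particle, lay at a median of 0.0054 with all arrays and 0.0085 without replicate 4. Of the 79 listed 55 were measured, and 3 were higher and 0 lower without replicate 4, a share below the background of all genes. Rpsa, Rps2 and Rps3 of the small subunit differed by 0.089, -0.19 and -0.093 (adjusted p = 0.313, 0.0521 and 0.425). These genes have many near-identical pseudogene copies, and their probe sets are uncertain in that respect. Whether ribosomal protein genes and ribosome biogenesis genes differ in response was not tested.

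Partners and other targets of MYC did not share a direction. Of 16 genes of the MYC network, 5 were higher and 3 lower without replicate 4, beside 17.1% and 12.7% of all genes, with a median of 0.065. Max, the obligate partner of MYC, read 11.02, 11.02 and 10.78 in replicates 1 to 3, 10.96 in replicate 4, and 10.96 and 10.97 with anti-ICOS, so that its groups overlapped. Without replicate 4 the paralogs Mycn and Mycl differed by 0.14 and -0.16 (adjusted p = 0.236 and 0.255). Of 20 metabolic genes often described as MYC targets, 6 were higher and 3 lower without replicate 4, beside the same 17.1% and 12.7%, with a median of 0.066. Srm, which makes spermidine, read 9.76, 9.78 and 9.54, then 10.21, and 10.35 and 10.37, and without replicate 4 was higher by 0.66 (adjusted p = 0.00155). Cad, which starts pyrimidine synthesis, was higher by 0.56 in the same fit (adjusted p = 0.000748), and Odc1, the first enzyme of polyamine synthesis, differed by 0.18 (adjusted p = 0.225).

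**Figure D4:**
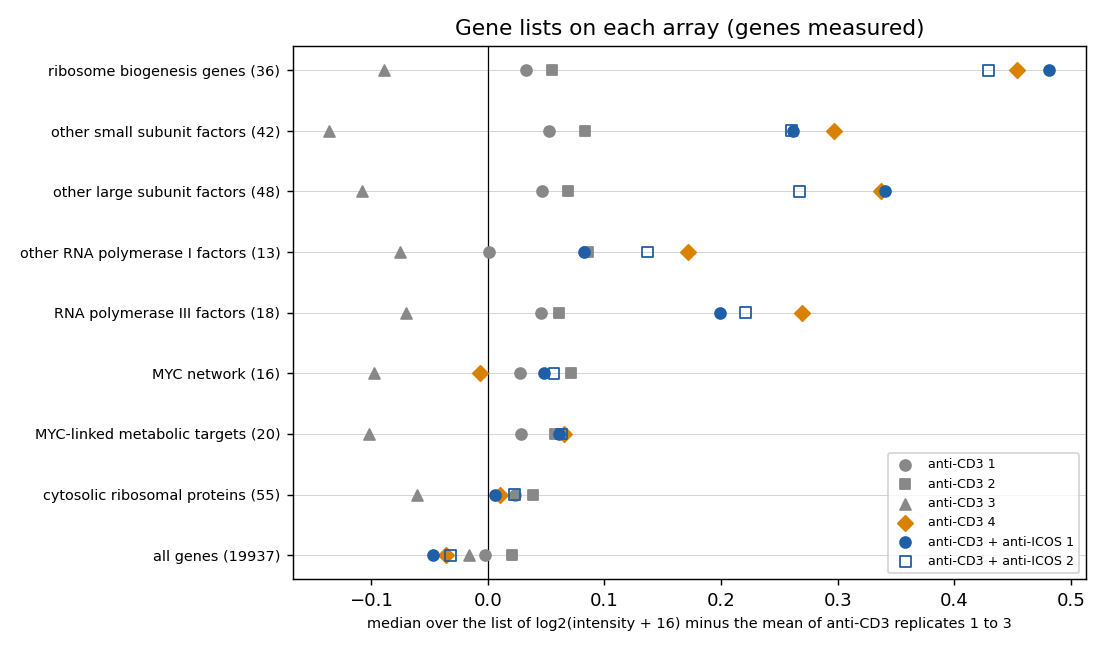
Each point is the median over a list, on 1 array, of log2(intensity + 16) minus the mean of anti-CD3 replicates 1 to 3, with the number of measured genes beside the list. The ribosome biogenesis genes lie at 0.45 in anti-CD3 replicate 4 and at 0.48 and 0.43 with anti-ICOS, the other subunit factors between 0.26 and 0.34, and the ribosomal proteins between 0.0058 and 0.023 on the same 3 arrays.

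The labelled cell type was checked against marker lists, all of which rest on intensities without detection calls. Of 8 CD4 T cell markers 7 were measured; Cd4 read 12.45, 12.42 and 12.32 in replicates 1 to 3, 12.05 in replicate 4, and a mean of 11.98 ± 0.036 (SD, n = 2) with anti-ICOS, while Icos read 10.63, 10.62 and 10.49, then 10.88, and 11.07 and 10.998. Replicate 4 lay below replicates 1 to 3 in 3 of the 7 (Cd3e, Cd4 and Cd28), against 42.5% of all genes. It lay above them in 2 (Icos and Cd3g), against 34.5% of all genes, and within them in 2, with a list median of -0.0067. The summed intensity of the 7 was 26630 to 28412, then 25231, and 23926 and 24605. Both anti-ICOS arrays were below all 4 anti-CD3 arrays in 4 of the 7 (Cd3e, Cd4, Cd5 and Cd28), against 14.7% of all genes. They were above all 4 in Icos, against 8.51%. Without replicate 4, Cd3e, Cd4 and Cd28 were lower past the threshold and Icos higher, beside 12.7% of all genes lower and 17.1% higher. B cell markers were bright on every array: the sum of 4 of 5 was 13147 to 14852 in replicates 1 to 3, 16044 in replicate 4, and 14765 and 16236 with anti-ICOS. The 2 CD8 genes summed to 3858.8 to 4128.3, then 4704, and 4352 and 4509, and 6 NK cell markers to 2573 to 2817, then 3576, and 3426 and 3378. Monocyte and macrophage markers (6 of 7) summed to 687 to 699, then 1152, and 1175 and 1804, with Lyz2 and Adgre1 at 8.53 and 8.10 in replicate 4 against at most 6.77 and 6.27 in replicates 1 to 3. In replicate 4, relative to the mean of replicates 1 to 3, the other measured members were Itgam at 0.27, Cd68 at -0.060, Fcgr1 at -0.11 and Csf1r at -0.15, and the list median was 0.11. Dendritic cell markers (7 of 7) summed to 511 to 571, then 626, and 925 and 901, and Flt3 among them was higher past the threshold with all arrays. Both anti-ICOS arrays were above all 4 anti-CD3 arrays in 4 of the 7, against 8.51% of all genes. They were below all 4 in Xcr1, against 14.7% of all genes, and overlapped with them in Clec9a and Cd209a. The lists of neutrophil, mast cell and basophil, and erythroid genes were 404 to 466, 141 to 161 and 120 to 130 in replicates 1 to 3. They read 372, 151 and 113 in replicate 4, with 501 and 1161, 210 and 310, and 132 and 129 with anti-ICOS. Sums of the B cell, CD8, NK, dendritic cell and monocyte lists were thus higher in replicate 4 than in replicates 1 to 3. Most ribosome biogenesis genes were also higher there. The monocyte sum rose mainly through Lyz2 and Adgre1, the NK sum through Klrd1, Eomes and Klrk1, and the dendritic cell sum through Itgax. In replicate 4 Clec9a, Cd209a and Siglech were below replicates 1 to 3, and the dendritic cell list median was -0.029. Ncr1 and Klrb1c of the NK list lay within replicates 1 to 3. By gene, replicate 4 was above replicates 1 to 3 in 3 of 4 B cell, 2 of 2 CD8 and 4 of 6 NK markers. It was above them in 3 of 7 dendritic cell and 3 of 6 monocyte markers. Both anti-ICOS arrays were above all 4 anti-CD3 arrays in 0 of 4 B cell and 0 of 2 CD8 markers. The same held in 2 of 6 NK and 3 of 6 monocyte markers, against 8.51% of all genes. Over all genes, replicate 4 was above replicates 1 to 3 in 34.5% and below them in 42.5%. The part of these cell types in the result was not tested. In bulk RNA, fewer cells of a type and less RNA per cell cannot be told apart.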

How the data were processed

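Total RNA (1 ug per the labels' protocols) from 6 cultures was hybridised to 1-colour Affymetrix arrays, and groups and replicate numbers came from the sample titles. The values deposited by the authors are linear normalized intensities per probe set. The submitters' processing notes name MAS5 and no other tool; how background, probe summary and centring were handled is not stated in those sources. Of 34760 probe sets, 21640 had 1 gene symbol, 1321 several and 11799 were unnamed here; the probe set with the highest mean stood for each of 19937 genes, as log2(intensity + 16). No 2 arrays held identical values. The linear model was limma 3.58.1 under R 4.3.3 (lmFit, eBayes, 4 residual degrees of freedom), two-sided, with Benjamini-Hochberg adjustment over all genes and a threshold of 0.05. The fit was first tested on simulated data. Alternatives were quantile normalization, median centring, offsets of 1 and 64, a filter on the 40% of genes that were dimmest, array weights, a robust prior with a trend, other choices of probe set, a block for replicate number, leaving out each array, replicate 4 as the only reference and a threshold of 0.1. The genes, their roles and the further lists were chosen with earlier results of these data known. All measured genes of the main list are named, and of each further list the first 3 as listed; markers were named after their values were seen. Promoter windows are RefSeq's (GRCm38.p6), matched by symbol. Protein sequences were not used here. Figures come from matplotlib 3.10.9 (Python 3.11.15).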

Additional observations from a re-analysis of the deposited data

Results flagged for a closer look

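In some genes 1 anti-CD3 array lay apart from the other 3, with its gap to the nearest divided by the range of the 4 above Dixon's critical value for 4 samples. About 1 group in 20 passes that limit by chance. Among the 36 ribosome biogenesis genes there were 5, against 1732 of all 19937 genes. Replicate 4 was the array apart in 4 of the 5, and over all genes in 1197 of the 1732, a similar share. In the 4 it was the high array, at 9.33 for Polr1a, 8.85 for Polr1b, 8.30 for Rrp1b and 8.60 for Gnl3. Replicate 3 was the low array for Ncl at 11.28. Among the other genes named, replicate 4 was high for Cad at 9.06, Lyz2 at 8.53 and Adgre1 at 8.10, and replicate 3 was low for Polr3b at 8.67. The median of the 4 RNA polymerase I genes set replicate 4 apart at 0.50 above the mean of replicates 1 to 3.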

How the results depend on the processing

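With all 6 arrays weighted alike, 0 of 36 genes passed under each change of scaling, offset, filter, prior, probe set or threshold that was tried. The count was 28 with array weights (27 higher, and Npm1 lower), 27 with replicate number as a block, and 0 to 27 with 1 array left out, where 27 was reached without anti-CD3 replicate 4. Without replicate 4, quantile normalization gave 24 and median centring 27, both chosen after the data were seen. Over all genes 54 passed; it was 28 with an offset of 64, 9413 with array weights, 6551 with the block, 16 to 5930 with 1 array left out, 35 against replicate 4 alone and 85 at a threshold of 0.1. In the further lists it was 115 with array weights, 80 with the block and 0 to 75 with 1 array left out. The median of the 36 differences, 0.33 with all arrays, was 0.0061 against replicate 4 alone and 0.28 to 0.42 with 1 array left out. The block compares the arrays that share a number, of which there are 2 pairs. Anti-CD3 arrays whose number no anti-ICOS array shares, replicate 4 among them, add nothing to the block's differences. The 27 genes with the block therefore come from another fit in which replicate 4 is not compared, and are a description. Deviations of the pairs from their group means correlated at -0.039 and 0.10. With 2 anti-ICOS arrays those deviations mirror each other, so the correlations cannot decide whether the numbers pair the cultures. The main fit does not pair them.

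The differences of some genes changed sign. With quantile normalization Polr1c was -0.025, Fbl -0.080 and Pes1 -0.053. With array weights Fbl was -0.050, Pes1 -0.044 and Wdr12 0.0084, and with the block -0.12, -0.099 and 0.00064. The mean of its probe sets gave 0.057 for Wdr12. With 1 array left out Polr1c ran from -0.0012 to 0.12, Fbl from -0.042 to 0.10, Gar1 from -0.063 to 0.011, Pes1 from -0.019 to 0.10 and Wdr12 from -0.051 to 0.027. Against replicate 4 alone 16 genes changed sign: Noc3l -0.16, Ltv1 -0.15, Ubtf -0.14, Polr1c -0.13, Polr1a -0.099, Wdr43 -0.090, Nop58 -0.062, Nolc1 -0.054, Nhp2 -0.050, Rrp1b -0.047, Nop2 -0.041, Wdr75 -0.038, Nop16 -0.013, Tsr1 -0.012, Dkc1 -0.0033 and Npm1 0.0035. The cause was not tested.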
